A study of Mus musculus with 12 samples.

Results

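The comparison set cTreg cells activated for 20 h with Torin 1 against cTreg cells activated for 20 h with DMSO, the vehicle. It took 6 of the 12 arrays of the series, 3 in each group, chosen by their titles, and 22180 genes, each read on a row of the array that carries exactly 1 gene symbol. cTreg cells are resting, central-type regulatory T cells. They were sorted from spleen and peripheral lymph nodes as CD4+ cells that carried the Foxp3-YFP reporter, with high CD62L and low CD44, from transgenic mice on a C57BL/6 background. All arrays of the series, the DMSO arrays included, came from such reporter mice. Torin 1 was used at 50 nM, and both groups were stimulated through CD3 and CD28 with added IL-2. Of the remaining 6 arrays, 3 were of cells activated for 20 h with 500 nM PP242, another mTOR kinase inhibitor. The other 3 were of unstimulated cells at 0 h (labelled with DMSO as well). Levels of both groups are given beside the comparison, and their arrays also entered the fit that estimates the spread behind the p values. The sources used here do not say how many mice went into a replicate, and no group was held in culture for 20 h without stimulation, so the 0 h level is not a control for time in culture. The p values therefore measure the spread between these samples.

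mTOR is a kinase that works in 2 complexes. mTORC1 couples growth factors, antigen receptor signals and amino acids to ribosome production, translation, nucleotide and lipid synthesis and mitochondrial function, and it holds back autophagy. mTORC2 acts on AKT, which keeps the FOXO transcription factors out of the nucleus, where they drive genes of quiescence and of recirculation through lymph nodes. In T cells the step out of quiescence after antigen receptor stimulation includes growth in cell mass, then entry into the cell cycle, and Torin 1 competes with ATP at the kinase site that both complexes share.

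Values were read as log2 expression, so that a difference of 1 is a change of 2-fold, and each difference is the Torin 1 mean minus the DMSO mean with its standard error (SE). The median of an array over all rows lay between 4.95 and 5.08, and arrays of a group correlated at 0.979 to 0.987 over all rows (Pearson). The threshold for a call was 0.05 for p values from limma, adjusted over all genes tested (Benjamini-Hochberg), and a call is said to have held when it stood, in the same direction, in each of 12 further fits that left out 1 array. The sorted cells read as regulatory T cells in both groups. The 8 markers of these cells, among them *Foxp3*, *Il2ra* and *Ikzf2*, had mean log2 levels over the arrays of at least 8.27, and none was called. B cell markers averaged 4.65 to 4.75 per array with Torin 1 and 4.70 to 4.96 with DMSO, and 2 of 7, *Ms4a1* and *Cd22*, were called lower, though neither call held. The 6 platelet markers averaged 5.45 to 5.51 per array with Torin 1 and 5.21 to 5.27 with DMSO. Of them *Itga2b* was called higher, at a difference of 0.53. *Itgb3*, *Gp9* and *Treml1* differed by 0.31, 0.30 and 0.23 and were not called, while *Pf4* and *Ppbp* lay near 4 on every array. No CD8, myeloid, dendritic, NK, erythroid, endothelial or stromal marker was called, but some were bright. Over the arrays of both groups *Cd8b1* read 7.17 to 7.77 (*Cd8a* 4.43 to 5.16), *Cd68* 6.46 to 7.50 and *Pecam1* 8.59 to 9.12. *S100a8* read 5.73 in DMSO replicate 1, against 3.25 and 3.43 in the other DMSO arrays. The part of other cells in the results was not tested. In bulk RNA, fewer cells of a type and less RNA per cell cannot be told apart.

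In activated cells with Torin 1, many genes of growth and division were lower, and several genes of quiescence and recirculation were higher, than in cells with DMSO. Of the 22180 genes, 1062 (4.79%) were lower and 738 (3.33%) were higher, 8.12% in all, around a median log2 difference of 0.01 over all genes. The counts were 645 lower and 343 higher without Torin 1 replicate 1, and 635 lower and 476 higher without DMSO replicate 2, while 482 were higher without Torin 1 replicate 2 and 457 without DMSO replicate 3. Calls that held in all 12 fits numbered 500 lower (2.25%) and 274 higher (1.24%). Falls were the larger changes, since 110 genes were lower by 2-fold or more and 10 were higher by as much. On 1054 of the genes called lower and 733 of those called higher, the 3 arrays with Torin 1 all lay beyond the 3 with DMSO. Groups did not overlap for 2734 genes lower and 2728 higher in all. With genes ordered by brightness in 4 equal groups, the share called was 0.902% in the dimmest, then 1.77% and 8.33%, and 21.5% in the brightest. Of the 5545 brightest genes 669 were lower and 521 higher. The shares of all genes given beside a list below include dim genes and are not matched for brightness.

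**Figure D1:**
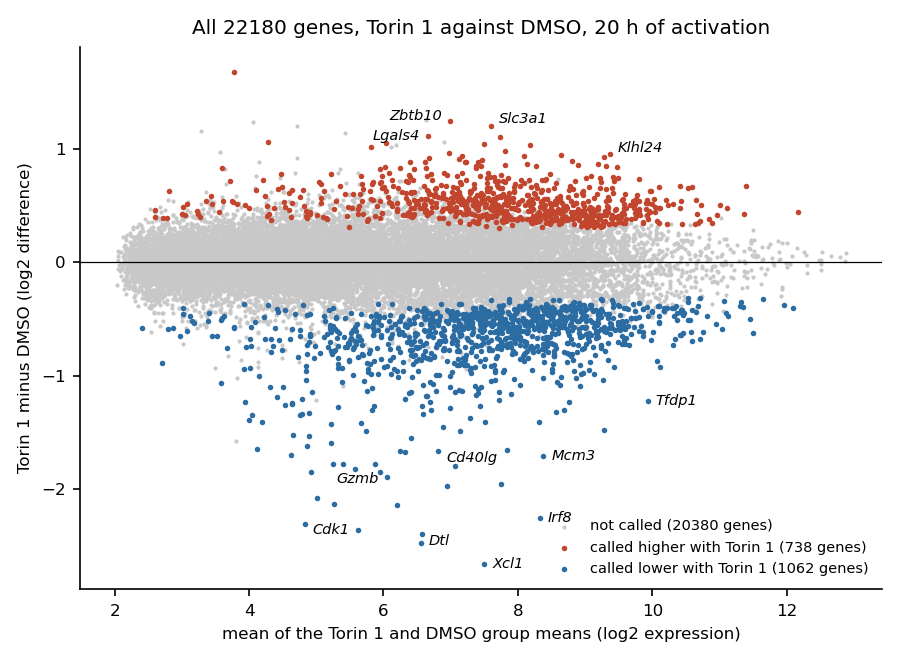
Each point is a gene; the x axis gives the mean of the Torin 1 and DMSO group means (log2 expression) and the y axis Torin 1 minus DMSO (log2 difference), with 3 arrays a group. The 1062 genes called lower reach differences beyond -2, while the largest rise among the labelled genes is *Zbtb10* at 1.25.

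The machinery of DNA replication was the list with the lowest median. Of its 56 measured genes, 40 were called lower and none higher, 35 of the calls held, and the median log2 difference was -0.77. Every one of the 56 had a difference below 0. All 6 subunits of the MCM helicase, which opens the DNA at replication forks, fell, by -0.58 for *Mcm6* to -1.71 for *Mcm3* in log2 difference. *Mcm3* had log2 levels of 7.39, 7.44 and 7.74 with Torin 1, against 9.32, 9.23 and 9.14 with DMSO, and the groups were far apart (SE 0.11, adjusted p = 2.87e-06). Its log2 level averaged 7.08 with PP242 and 6.79 in unstimulated cells. The factors that load the helicase fell too, with *Cdc6* at a log2 difference of -1.85 (SE 0.15, adjusted p = 1.06e-05) and the origin recognition subunit *Orc1* at -1.35. In the origin recognition complex *Orc1*, *Orc2* and *Orc6* were called, while *Orc3*, *Orc4* and *Orc5* differed by -0.02, -0.04 and -0.15 and were not. All 4 genes of DNA polymerase alpha and its primase fell, with a median log2 difference of -0.88. *Pole*, the catalytic subunit of DNA polymerase epsilon, read 6.40, 6.28 and 5.80 in log2 level with Torin 1, against 7.95, 7.86 and 8.07 with DMSO (log2 difference -1.80, SE 0.16, adjusted p = 2.72e-05), and the difference was -0.89 when the median of its rows was taken. *Ticrr*, which helps to fire origins, and *Chaf1a*, which sets histones on new DNA, each fell by 1.78 in log2 difference. The complexes named here and below were drawn from the lists after the values were seen.

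Promoter sequence is shown for genes of this and the next groups, since short motifs there bind the factors that switch cell cycle genes together. For 16918 of the genes a RefSeq promoter window (build GRCm38.p6, 250 bases before and 50 after the first listed start) was at hand, and motifs were searched on both strands. The E2F motif was taken as TTTCCCGC, TTTGGCGC, TTTCGCGC or TTTGCCGC. It was found in 36.4% of 44 replication genes, against 2.91% of all genes with a window. Shares of a list, here and below, count every gene with a window, called or not. They describe the list and not the response to Torin 1. The windows below are those of the replication genes with the largest changes that held and that carry the motif before the start, each 250 bases, 5′ to 3′ on the strand of the gene, with the motif in capitals.
*Dtl* (chr1:191575545-191575794, minus strand): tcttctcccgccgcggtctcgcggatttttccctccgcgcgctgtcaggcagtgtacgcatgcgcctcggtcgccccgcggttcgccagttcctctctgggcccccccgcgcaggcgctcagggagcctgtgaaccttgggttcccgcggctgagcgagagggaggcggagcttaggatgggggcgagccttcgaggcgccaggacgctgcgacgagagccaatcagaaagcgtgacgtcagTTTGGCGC
*Cdc6* (chr11:98907901-98908150, plus strand): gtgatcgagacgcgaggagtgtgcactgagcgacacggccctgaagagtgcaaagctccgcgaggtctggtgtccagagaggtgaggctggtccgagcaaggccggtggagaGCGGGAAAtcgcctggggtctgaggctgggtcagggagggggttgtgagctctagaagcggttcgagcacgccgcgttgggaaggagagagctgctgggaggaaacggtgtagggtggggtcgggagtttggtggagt
*Mcm5* (chr8:75109259-75109508, plus strand): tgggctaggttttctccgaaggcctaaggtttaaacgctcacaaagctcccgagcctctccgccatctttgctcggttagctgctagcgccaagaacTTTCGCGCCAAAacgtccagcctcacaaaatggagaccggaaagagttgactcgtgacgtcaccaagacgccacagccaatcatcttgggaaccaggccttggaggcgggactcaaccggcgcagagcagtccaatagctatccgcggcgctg
In *Mcm5* the capitals are 2 matches on opposite strands that overlap. *Mcm5* had log2 levels of 8.49, 8.60 and 8.55 with Torin 1, against 10.03, 10.10 and 9.95 with DMSO.

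Mitosis genes moved the same way, with 51 of 87 called lower, none higher, 34 calls that held and a median log2 difference of -0.64. *Ccna2*, the S and G2 phase cyclin A2, had log2 levels of 3.99, 4.11 and 3.83 with Torin 1, against 5.93, 6.39 and 5.87 with DMSO (log2 difference -2.08, SE 0.17, adjusted p = 1.06e-05). Its levels averaged 4.30 with PP242 and 4.49 in unstimulated cells. *Top2a*, the topoisomerase that untangles sister chromatids, read 4.73, 4.63 and 4.62 in log2 level with Torin 1, against 6.45, 6.50 and 6.50 with DMSO (log2 difference -1.82, SE 0.10, adjusted p = 8.74e-07). For neither gene did an array of one group come near the other group. *Cenpk*, a centromere protein, differed by -2.13, and *Pbk*, a mitotic kinase, by -1.62 in log2 difference. Of the chromosomal passenger complex, which corrects the attachment of chromosomes to the spindle, *Birc5*, *Aurkb* and *Cdca8* fell, at log2 differences of -1.53, -1.30 and -0.98. Some falls ended near the log2 level of silent genes (3.69, defined below), so their size is less certain. With Torin 1 *Birc5* averaged 3.88, *Ccna2* 3.98 and the condensin subunit *Ncapg2* 3.90. The list was not uniform. *Ccnb2*, cyclin B2, read 6.39, 6.58 and 6.75 in log2 level with Torin 1, against 6.40, 6.58 and 6.10 with DMSO, with overlap and no call (log2 difference 0.21, adjusted p = 0.409). The condensin subunits *Ncaph*, *Ncapg2* and *Smc2* fell, at log2 differences of -1.27, -1.26 and -0.84, while *Smc4* differed by 0.25 and *Ncapd3* by 0.34, and neither was called.

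The cell cycle homology region (CHR, TTTGAA), through which many mitosis genes are repressed in resting cells, was found in 63.4% of 71 mitosis genes with a window, against 15.8% of all genes. The CCAAT box, by its letters CCAAT, was in 67.6% of these mitosis genes, against 38.4% of all. Over all 876 genes called lower that had a window the CHR was in 16.4%, near the share of all genes. Windows of the mitosis genes with the largest changes that carry a CHR before the start follow, with the CHR in capitals.
*Mki67* (chr7:135716380-135716629, minus strand): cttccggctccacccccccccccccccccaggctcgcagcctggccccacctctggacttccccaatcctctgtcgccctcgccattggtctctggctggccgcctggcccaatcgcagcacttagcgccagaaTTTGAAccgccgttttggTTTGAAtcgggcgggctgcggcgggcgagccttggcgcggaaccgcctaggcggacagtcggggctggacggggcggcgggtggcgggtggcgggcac
*Cdk1* (chr10:69352913-69353162, minus strand): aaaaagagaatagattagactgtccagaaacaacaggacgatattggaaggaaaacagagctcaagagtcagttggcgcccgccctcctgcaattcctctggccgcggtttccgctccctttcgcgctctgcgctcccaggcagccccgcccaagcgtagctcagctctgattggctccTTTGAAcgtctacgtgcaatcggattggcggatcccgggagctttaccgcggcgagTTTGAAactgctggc
Each of these windows carried 2 CHR matches.

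Of 33 genes that set the G1 to S switch 11 were lower (9 held) and 3 higher (2 held), with a median log2 difference of -0.22. Of the 5 activator and atypical E2F factors 4 were called lower, and 3 of these calls held. *E2f8*, an atypical factor, had log2 levels of 4.09, 3.98 and 3.90 with Torin 1, against 5.87, 6.07 and 5.58 with DMSO (log2 difference -1.85, SE 0.13, adjusted p = 2.87e-06). Its levels with Torin 1 also lay near that of silent genes. The activators *E2f3* and *E2f1* fell, at log2 differences of -1.42 and -0.86. The call of *E2f7* (-0.68) did not hold (adjusted p up to 0.133 without single arrays), and the activator *E2f2* was not called (-0.36, adjusted p = 0.163). Nor were *E2f4*, *E2f5* and *E2f6*, at -0.17, -0.15 and -0.48; the difference between these groups of factors was not tested. *Tfdp1*, the partner that E2F factors need to bind DNA, had log2 levels of 9.25, 9.39 and 9.31 with Torin 1, against 10.43, 10.59 and 10.58 with DMSO (log2 difference -1.22, SE 0.12, adjusted p = 5.77e-05). *Cdc25a*, the phosphatase that activates cyclin-dependent kinases, fell by 1.20 and cyclin E1, *Ccne1*, by 0.94 in log2 difference. Brakes of the cycle were among the rises. *Cdkn1b*, which encodes the inhibitor p27, had log2 levels from 7.85 upward on the arrays with Torin 1, against 7.25 to 7.42 with DMSO, without overlap (log2 difference 0.56, SE 0.11, adjusted p = 0.00622), and *Ccng2*, an unusual cyclin of resting cells, rose by 0.49. *Tfdp2*, a second E2F partner, was called higher at 0.44 (adjusted p = 0.0358), a call that was lost without some single arrays, with an adjusted p up to 0.126.

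Among genes that repair and mark DNA the falls were fewer. Of 55 repair and checkpoint genes 19 were lower and 1 higher, 9 of the falls held, and 11 were lower without DMSO replicate 3. *Exo1*, a nuclease of mismatch repair and recombination, had log2 levels of 5.66, 5.05 and 5.52 with Torin 1, against 7.02, 7.11 and 7.10 with DMSO (log2 difference -1.66, SE 0.15, adjusted p = 3.35e-05). *Chek1*, the replication checkpoint kinase, and *Rad54l* and *Brca2*, both of homologous recombination, fell, at log2 differences of -1.55, -1.19 and -0.87. *Hells*, a chromatin remodeller, and *Uhrf1*, which brings the maintenance methyltransferase to new DNA, were among the largest falls, at -1.97 and -1.96. The methyltransferase itself, *Dnmt1*, fell by 0.65 in log2 difference, with log2 levels of 8.59, 8.66 and 8.55 with Torin 1, against 9.24, 9.27 and 9.26 with DMSO. Of 13 genes of DNA methylation and demethylation 2 were lower, *Uhrf1* and *Dnmt1*, and 1 higher, with a median log2 difference of 0.18 and 4 differences below 0. The rise was *Uhrf2*, a relative of *Uhrf1*, at 0.39, and its call did not hold (adjusted p up to 0.116 without single arrays). Among 26 replication-dependent histone genes 3 were lower (11.5%, against 4.79% of all genes), or 6 without DMSO replicate 3. A rise was called for 1 of them (3.85%, near the 3.33% of all genes).

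Transcripts of nucleotide synthesis enzymes were lower at several steps. In de novo purine synthesis 5 of 10 genes were lower and all 10 had a difference below 0, with a median log2 difference of -0.41. *Atic* and *Adsl*, enzymes of the pathway to inosine monophosphate, fell by 0.78 and 0.76. In pyrimidine and deoxynucleotide synthesis 9 of 16 were lower and 1 higher, with a median of -0.63. *Rrm1*, the large subunit of ribonucleotide reductase, had log2 levels of 6.03, 5.82 and 5.93 with Torin 1, against 7.45, 7.38 and 6.94 with DMSO (log2 difference -1.34, SE 0.21, adjusted p = 0.00189). Its small subunit *Rrm2* fell by 1.78 in log2 difference (-1.09 when the median of its rows was taken), and thymidylate synthase, *Tyms*, was at -1.15. *Cad*, the enzyme that opens pyrimidine synthesis and a known substrate of the mTORC1 pathway, fell by 0.75 in log2 difference. The CTP synthases went opposite ways, with *Ctps* lower by 0.74 and *Ctps2* higher by 0.54 (adjusted p = 0.00573 and 0.00471), and both calls held. Of 23 genes of nucleoside and base salvage 5 were lower (21.7%, against 4.79% of all genes, and 3 without DMSO replicate 1). A rise was called for 1 (4.35%, near the 3.33% of all genes). The median of the list was -0.14, and thymidine kinase, *Tk1*, was at -0.82. Serine and one-carbon metabolism, which feeds both pathways, had 11 of 18 genes lower and none higher, with 7 calls that held and a median of -0.59. *Shmt2*, the mitochondrial serine hydroxymethyltransferase, read 9.90, 9.94 and 9.96 in log2 level with Torin 1, against 10.72, 10.68 and 10.60 with DMSO (log2 difference -0.73, SE 0.10, adjusted p = 0.00063). *Sfxn1*, which carries serine into mitochondria, and *Mthfd1* fell by 1.08 and 0.95. Polyamine genes were mixed, with 3 of 12 lower, 1 higher and a median of 0.02, which turned below 0 after centring (-0.01) or quantile normalization. *Srm*, spermidine synthase, had log2 levels of 9.01, 8.90 and 8.98 with Torin 1, against 9.88, 9.99 and 9.79 with DMSO (log2 difference -0.93, SE 0.10, adjusted p = 8.73e-05), and *Odc1*, the first enzyme of polyamine synthesis, fell by 0.64. *Oaz2*, an antizyme that restrains *Odc1*, was called higher at 0.45, a call that did not hold (adjusted p up to 0.109 without single arrays).

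**Figure D2:**
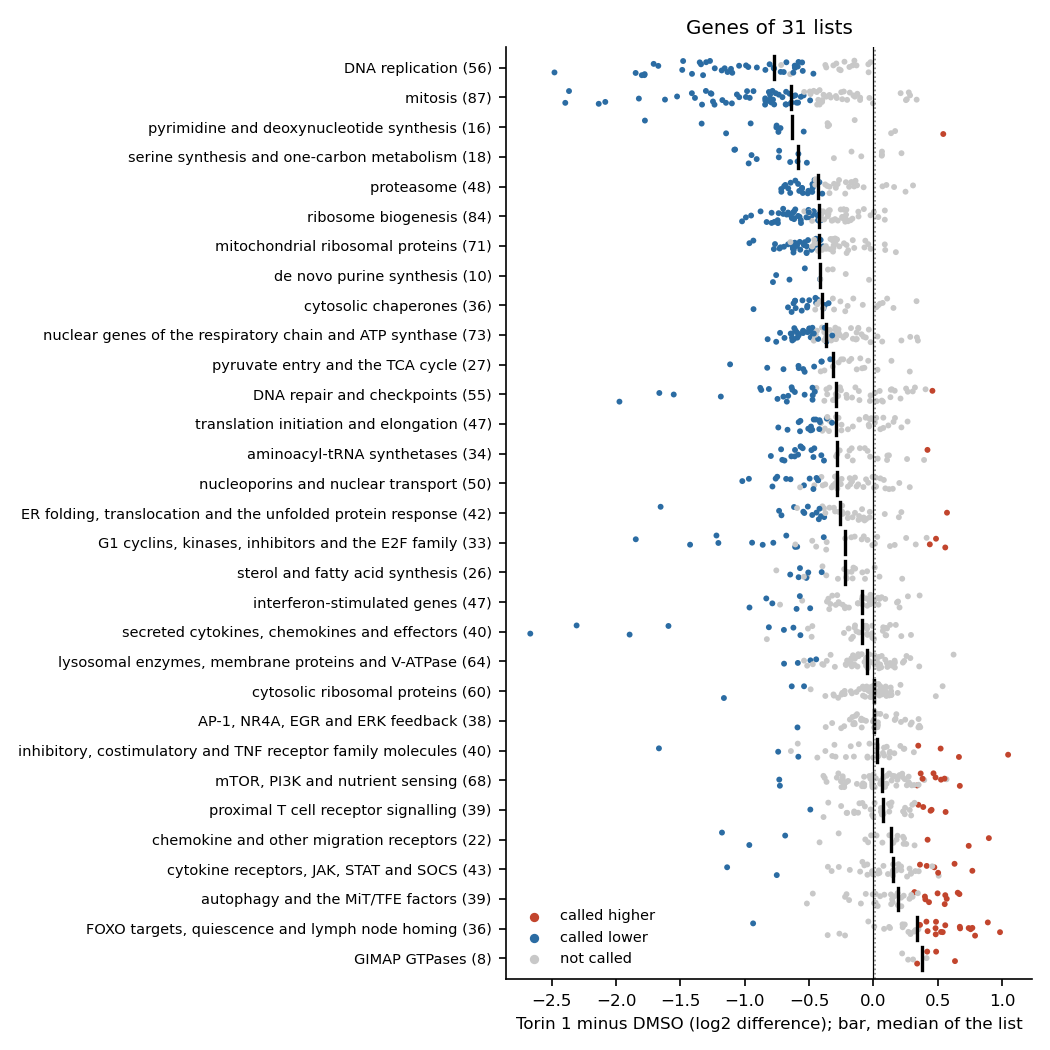
Each point is a gene of one of 31 lists, with its log2 difference (Torin 1 minus DMSO) on the x axis; colours give the call, bars the median of each list, numbers in parentheses the genes measured, and the dotted line the median of all genes. DNA replication has the lowest median (-0.77) and the GIMAP GTPases the highest (0.38).

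Calls were common among genes that build ribosomes and not among those of the ribosome itself. Of 84 ribosome biogenesis genes 43 were lower and none higher, 28 of the calls held, and the median log2 difference was -0.43. *Lyar*, a nucleolar protein, had log2 levels of 8.28, 8.51 and 8.29 with Torin 1, against 9.27, 9.49 and 9.38 with DMSO (log2 difference -1.02, SE 0.12, adjusted p = 0.00029). *Pno1* and *Bysl*, which mature the small subunit, fell by 0.99 and 0.95, and *Nhp2* and *Dkc1*, proteins of the particles that modify ribosomal RNA, by 0.88 and 0.79. *Rrn3*, the factor that brings RNA polymerase I to ribosomal DNA, fell by 0.60 (adjusted p = 0.0057) and was the single call to hold among the 7 lower genes of 33 for RNA polymerases I and III. That count was 2 without DMSO replicate 1. By contrast, 3 of 60 cytosolic ribosomal protein genes were lower (5%, near the 4.79% of all genes) and none was higher. Of these calls, *Rpl34* and *Rpl5* held. The list was bright, with a median log2 level of 9.58 to 9.72 per array. Among the 5545 brightest genes calls were more common than in this list, with 669 lower and 521 higher. The median of the list was 0.00, or -0.02 and -0.03 after centring or quantile normalization. Ribosomal protein genes have many near-identical copies in the genome, so their rows are uncertain. A further 19 ribosomal protein genes of the list had no row with exactly 1 symbol and were not measured. *Rps6*, the ribosomal protein whose phosphorylation is used as a readout of mTORC1, read 12.81, 12.79 and 12.84 in log2 level with Torin 1, against 12.77, 12.74 and 12.79 with DMSO.

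Among genes of tRNA charging the calls were mostly of the cytosolic enzymes. Of 18 cytosolic aminoacyl-tRNA synthetase genes 14 were lower (10 held), with a median log2 difference of -0.56. Of 16 mitochondrial ones 2 were lower (1 held) and 1 higher, with a median of -0.04. *Nars*, the asparaginyl-tRNA synthetase, had log2 levels of 10.28, 10.12 and 10.34 with Torin 1, against 11.03, 10.92 and 10.86 with DMSO (log2 difference -0.69, SE 0.11, adjusted p = 0.00158). *Farsb* and *Vars* fell by 0.80 and 0.72, and *Tars2*, the mitochondrial threonyl-tRNA synthetase, was called higher at 0.42, a call that did not hold (adjusted p up to 0.143 without single arrays). Of 47 genes of translation initiation and elongation, 16 were lower (5 held) and none higher, and 5 were lower without DMSO replicate 2. The scaffold subunits *Eif3c*, *Eif3l* and *Eif3b* of initiation factor 3 fell by 0.58, 0.57 and 0.49 in log2 difference.

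Nuclear genes of mitochondria were called lower in part, with differences mostly under 1. Of 71 mitochondrial ribosomal protein genes 32 were lower and none higher (13 held, and 15 were lower without DMSO replicate 2), with a median log2 difference of -0.42. *Mrps22*, of the small subunit, had log2 levels of 6.56, 6.94 and 7.01 with Torin 1, against 7.82, 7.88 and 7.61 with DMSO (log2 difference -0.93, SE 0.13, adjusted p = 0.000699). *Mrps28*, of the same subunit, read 6.75, 7.18 and 6.99 in log2 level with Torin 1, against 7.60, 7.61 and 7.65 with DMSO, with no overlap and no call (log2 difference -0.65, SE 0.19, adjusted p = 0.0555). Of 73 genes of the respiratory chain and ATP synthase 30 were lower and none higher (11 held, and 12 were lower without Torin 1 replicate 1), with a median of -0.37. By complex, 15 of 33 genes of complex I were lower (7 held), 2 of 4 of complex II (0 held) and 3 of 8 of complex III (2 held). So were 4 of 10 of complex IV (0 held) and 5 of 17 of the ATP synthase (1 held). *Ndufa9*, of complex I, had log2 levels of 8.84, 8.89 and 8.84 with Torin 1, against 9.62, 9.64 and 9.57 with DMSO (log2 difference -0.76, SE 0.11, adjusted p = 0.000827). *Idh3a*, a subunit of isocitrate dehydrogenase in the TCA cycle, fell by 1.11, one of 11 lower genes of 27 (3 held, and 3 were lower without Torin 1 replicate 1). Of 40 genes of import, folding and DNA maintenance 15 were lower and 1 higher (9 were lower without DMSO replicate 1). *Hspd1*, the mitochondrial chaperonin HSP60, had log2 levels of 8.01, 8.02 and 8.05 with Torin 1, against 8.95, 8.99 and 8.98 with DMSO (log2 difference -0.94, SE 0.10, adjusted p = 0.000141). *Tfam*, which packages mitochondrial DNA, overlapped between groups, at 6.86, 7.28 and 7.45 in log2 level with Torin 1, against 6.78, 7.14 and 7.25 with DMSO, and was not called (log2 difference 0.14, adjusted p = 0.776). The carriers of the inner membrane were mixed. *Slc25a5* and *Slc25a4*, which exchange ADP for ATP, fell, at log2 differences of -0.67 and -0.71, while *Slc25a27*, an uncoupling protein family member, rose by 0.88 (adjusted p = 0.000511).

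Protein folding and turnover genes were called lower in part. Of 36 cytosolic chaperone genes 18 were lower and none higher, 11 of the calls held, and the median log2 difference was -0.40. The TRiC chaperonin, which folds actin and tubulin, had 7 of 8 subunits lower (4 held). Among them was *Cct7*, at log2 levels of 10.14, 10.02 and 10.25 with Torin 1, against 10.75, 10.75 and 10.76 with DMSO (log2 difference -0.62, SE 0.11, adjusted p = 0.00451). Of 48 proteasome genes 22 were lower and none higher (12 held, and 12 were lower without Torin 1 replicate 1), with a median of -0.43. The calls were 8 of 13 in the core particle (2 held) and 10 of 17 in the regulatory particle (7 held). None of the 3 subunits of the immunoproteasome was called. *Psmd6*, of the regulatory particle, fell by 0.72, and *Pomp*, which assembles the core, by the same in log2 difference (adjusted p = 0.00125 and 0.00285). In the endoplasmic reticulum *Sdf2l1*, a partner of the chaperone BiP, stood out. It had log2 levels of 7.03, 7.07 and 6.94 with Torin 1, against 8.69, 8.87 and 8.43 with DMSO (log2 difference -1.65, SE 0.13, adjusted p = 8.1e-06), and averaged 6.42 with PP242 and 6.25 in unstimulated cells. *Calr*, calreticulin, and *Dnajb11* fell by 0.73 and 0.62, among 13 lower and 1 higher of 42 genes (6 were lower without DMSO replicate 1). The single rise was *Ern1*, which encodes the sensor IRE1, at 0.57, and its call did not hold (adjusted p up to 0.0932 without single arrays). Of 50 genes of nucleoporins and nuclear transport 13 were lower and none higher, led by the GTPase *Ran* at -1.02.

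**Figure D3:**
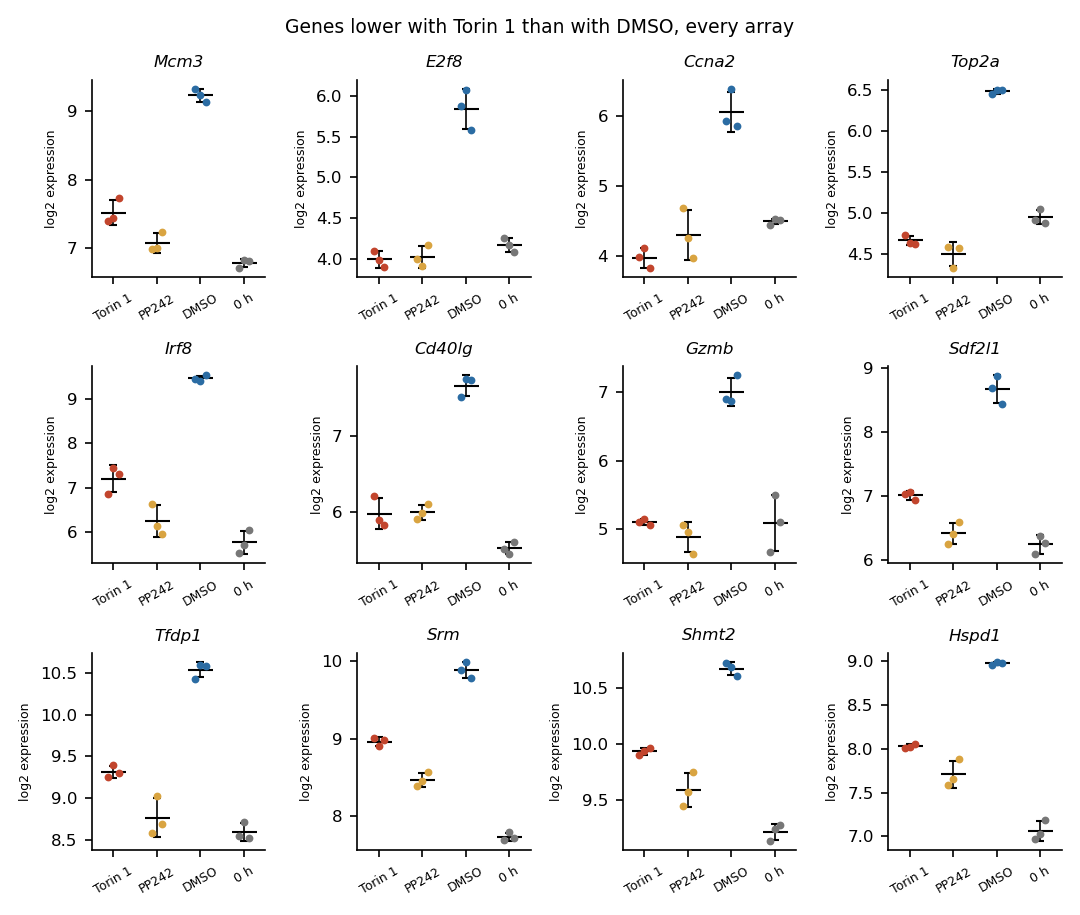
Log2 expression of 12 genes in every array (points), with the mean and SD of each group of 3, in the order Torin 1, PP242, DMSO and unstimulated cells at 0 h. The 12 genes were picked from those called lower without overlap, so by this choice the 3 arrays with Torin 1 lie below the 3 with DMSO.

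Transporters of nutrients were called in both directions. *Slc7a5*, the light chain of the transporter of large neutral amino acids, had log2 levels of 8.63, 8.55 and 8.75 with Torin 1, against 9.62, 9.60 and 9.66 with DMSO (log2 difference -0.99, SE 0.16, adjusted p = 0.00221). *Tfrc*, the transferrin receptor, fell by 0.89 and the monocarboxylate transporter *Slc16a1* by 0.78. Of 27 amino acid transporters 3 were higher and 3 lower (11.1% each, against 3.33% and 4.79% of all genes, and 1 lower without DMSO replicate 1). *Slc3a1*, which pairs with a light chain to import cystine and dibasic amino acids, read 8.47, 8.13 and 7.98 in log2 level with Torin 1, against 7.29, 6.91 and 6.78 with DMSO (log2 difference 1.20, SE 0.14, adjusted p = 0.00027). *Slc38a9*, the lysosomal arginine sensor that reports to mTORC1, rose by 0.76 (adjusted p = 0.00247). *Hk2*, a hexokinase at the entry of glycolysis, read 5.38, 5.20 and 5.39 in log2 level with Torin 1, against 6.15, 5.87 and 6.00 with DMSO (log2 difference -0.68, SE 0.13, adjusted p = 0.00471). Of 21 glycolysis genes 8 were lower and none higher, with *Tpi1*, triosephosphate isomerase, at log2 levels of 7.97, 8.08 and 8.10 with Torin 1, against 9.14, 9.18 and 9.01 with DMSO. Of 26 genes of sterol and fatty acid synthesis 6 were lower and none higher, of which *Ebp*, a sterol isomerase, and *Fasn*, fatty acid synthase, held at -0.65 and -0.40 (3 were lower without DMSO replicate 2).

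Of 40 secreted cytokines, chemokines and effectors 8 were lower (20%, against 4.79% of all genes) and none higher. All 8 calls held, with log2 differences from -0.57 to -2.67, and the median of the list was -0.09. *Xcl1*, a chemokine of activated lymphocytes, had log2 levels of 6.14, 6.16 and 6.20 with Torin 1, against 8.82, 8.85 and 8.82 with DMSO, and averaged 5.62 with PP242 and 4.45 in unstimulated cells. *Gzmb*, granzyme B, a protease of cytotoxic granules that regulatory T cells can also use, read 5.11, 5.15 and 5.06 in log2 level with Torin 1, against 6.90, 6.87 and 7.24 with DMSO (log2 difference -1.90, SE 0.18, adjusted p = 4.09e-05). *Ccl3*, a chemokine of inflamed tissue, fell by 1.59 (adjusted p = 0.000511). *Il2*, the growth factor that regulatory T cells mostly take from other cells, was near the level of silent genes with Torin 1, at 3.79, 3.67 and 3.57, against 6.39, 6.17 and 5.38 with DMSO in log2 level, and was at least 4.78-fold lower. That bound sets the DMSO mean against the mean over the Torin 1 arrays of the higher of the array's own level and a log2 level of 3.69, the 75th percentile of olfactory and vomeronasal receptor genes, taken as silent in T cells. *Ifng* and *Lta* fell by 0.81 and 0.70 and the remaining calls were *Tnf* and *Mif* at -0.57 and -0.62, named after their values were seen. *Il10* and *Tgfb1*, cytokines of suppression, differed by 0.29 and -0.06 and were not called (adjusted p = 0.269 and 0.866).

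Of 40 inhibitory, costimulatory and TNF receptor family molecules 4 were higher (10%, against 3.33% of all genes) and 3 lower (7.5%, against 4.79%). Without DMSO replicate 3, 2 were higher. The list was bright, with a median log2 level of 7.87 to 8.06 per array. Of the 5545 brightest genes 521 were higher and 669 lower, so an excess of calls in this list is not shown. *Cd40lg*, the helper ligand for CD40, had log2 levels of 6.22, 5.90 and 5.83 with Torin 1, against 7.50, 7.73 and 7.72 with DMSO (log2 difference -1.67, SE 0.12, adjusted p = 3.47e-06), and averaged 6.00 with PP242 and 5.53 in unstimulated cells. *Cd226*, an activating receptor that shares ligands with TIGIT, fell by 0.74 (adjusted p = 0.00573). *Lag3*, an inhibitory receptor for MHC class II, went the other way, at log2 levels of 7.87, 8.17 and 8.01 with Torin 1, against 6.94, 6.97 and 6.99 with DMSO (log2 difference 1.05, SE 0.14, adjusted p = 0.000542). *Lag3* averaged 6.86 with PP242 and 5.77 in unstimulated cells. *Tnfsf8*, the ligand of CD30, rose by 0.66. *Pdcd1*, which encodes the inhibitory receptor PD-1, was called lower at -0.58, and *Nt5e* and *Cd27*, which encode CD73 and a costimulatory receptor, higher at 0.52 and 0.35, but none of these calls held (adjusted p up to 0.106, 0.0621 and 0.11 without single arrays). *Icos* differed by -0.05 and *Tnfrsf18*, which encodes GITR, by -0.03, and neither was called, while *Ctla4* read 9.80, 9.74 and 9.60 in log2 level with Torin 1, against 9.47, 9.26 and 9.46 with DMSO, and missed the threshold (log2 difference 0.31, SE 0.10, adjusted p = 0.0692). *Tigit* lay between 5.83 and 6.24 in log2 level with Torin 1, against 6.12 to 6.92 with DMSO (log2 difference -0.64, SE 0.30, adjusted p = 0.24).

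Receptors that guide T cells were called in both directions, with 3 higher and 3 lower of 22 (13.6% each, against 3.33% and 4.79% of all genes). *S1pr1*, the receptor through which T cells leave lymph nodes, had log2 levels of 10.20, 10.16 and 10.15 with Torin 1, against 9.51, 9.47 and 9.31 with DMSO (log2 difference 0.74, SE 0.10, adjusted p = 0.000687), and averaged 10.54 with PP242 and 10.67 in unstimulated cells. *Klf2*, the factor that drives *S1pr1*, had log2 levels of 7.60, 7.62 and 7.48 with Torin 1, against 6.90, 6.90 and 6.53 with DMSO, without overlap (log2 difference 0.79). *Cxcr4*, the receptor for CXCL12, rose by 0.90 in log2 difference (SE 0.12, adjusted p = 0.000502). *Ccr8*, a chemokine receptor of activated and tissue regulatory T cells, read 5.92, 6.25 and 5.95 in log2 level with Torin 1, against 7.33, 7.49 and 6.85 with DMSO (log2 difference -1.18, SE 0.17, adjusted p = 0.00106). *Gpr183*, which guides lymphocytes along oxysterols, fell by 0.96. *Ccr7*, the lymph node homing receptor, differed by 0.24 and was not called (adjusted p = 0.121).

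FOXO targets and quiescence genes were the list of over 10 genes with the largest share of rises. Of 36 measured, 17 were higher (47.2%, against 3.33% of all genes) and 1 was lower (2.78%, under the 4.79% of all genes). Of these calls 12 and 1 held, and the median log2 difference was 0.34. *Fbxo32*, a ubiquitin ligase subunit and a classical FOXO target in muscle, had log2 levels of 6.93, 7.12 and 7.15 with Torin 1, against 6.18, 5.96 and 6.39 with DMSO (log2 difference 0.89, SE 0.13, adjusted p = 0.00106). *Irs2*, an adaptor of insulin signalling that FOXO factors induce, read 8.47, 8.30 and 8.34 in log2 level with Torin 1, against 7.63, 7.75 and 7.71 with DMSO (log2 difference 0.67, SE 0.09, adjusted p = 0.000641). *Zbtb20*, a zinc finger repressor, rose by 0.76, and *Satb1*, a chromatin organiser of T cells, by 0.54. *Il7r*, the IL-7 receptor chain, had log2 levels of 8.18, 8.13 and 8.08 with Torin 1, against 7.28, 7.77 and 7.03 with DMSO, with averages of 9.31 with PP242 and 9.38 in unstimulated cells. The exception was *Dapl1*, a gene of resting T cells, at 4.71, 5.06 and 4.79 in log2 level with Torin 1, against 5.71, 5.96 and 5.69 with DMSO (log2 difference -0.94, SE 0.12, adjusted p = 0.000589). *Foxo1* itself differed by 0.23 and was not called (adjusted p = 0.141).

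The FOXO motif was taken as GTAAACA. It was in 12.9% of 31 genes of this list with a window (4 genes), against 3.06% of all genes. Among the members that held with a rise, 1 carried it before the start, *Txnip*, which is shown with the motif in capitals.
*Txnip* (chr3:96557707-96557956, plus strand): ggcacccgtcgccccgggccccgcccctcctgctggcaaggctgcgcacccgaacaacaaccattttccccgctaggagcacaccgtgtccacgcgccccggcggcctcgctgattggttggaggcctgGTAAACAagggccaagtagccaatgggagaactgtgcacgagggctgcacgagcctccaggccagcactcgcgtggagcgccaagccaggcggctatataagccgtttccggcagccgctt
*Txnip*, which restrains glucose uptake and binds thioredoxin, had log2 levels of 11.76, 11.68 and 11.74 with Torin 1, against 11.08, 11.10 and 10.97 with DMSO (log2 difference 0.67, SE 0.09, adjusted p = 0.000511).

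Calls among autophagy genes were all rises. Of 39 autophagy genes and factors of the MiT/TFE family 10 were higher and none lower, 5 of the calls held, the median log2 difference was 0.19, and 5 were higher without DMSO replicate 3. *Rb1cc1*, which encodes FIP200 of the kinase complex that starts autophagy, had log2 levels of 8.48, 8.55 and 8.55 with Torin 1, against 7.87, 8.01 and 7.70 with DMSO (log2 difference 0.67, SE 0.11, adjusted p = 0.0025). *Ulk2*, a kinase of that complex, and *Nbr1*, a cargo receptor, rose by 0.57 and 0.55. Of 64 lysosomal genes none was higher and 4 were lower (6.25%, near the 4.79% of all genes, and 1 without DMSO replicate 2), with a median of -0.05 (*Gusb*, beta-glucuronidase, at -0.59, held). The lysosomal CLEAR motif, searched as TCACGTGA, which contains the E box CACGTG, was in 11.5% of the 52 with a promoter window, against 1.28% of all genes. Among 68 genes of mTOR, PI3K and nutrient sensing 8 were higher (11.8%, against 3.33% of all genes, and 3 without DMSO replicate 3). In the same list 2 were lower (2.94%, under the 4.79% of all genes). *Mtor* and *Rptor*, the kinase and its mTORC1 partner, differed by 0.05 and 0.00 and were not called. The rises that held were *Irs2* and *Phlpp1*, a phosphatase that acts on AKT, at 0.55, and the falls *Tbc1d7*, a subunit of the TSC complex, and *Fnip2*, a partner of folliculin, both at -0.73.

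**Figure D4:**
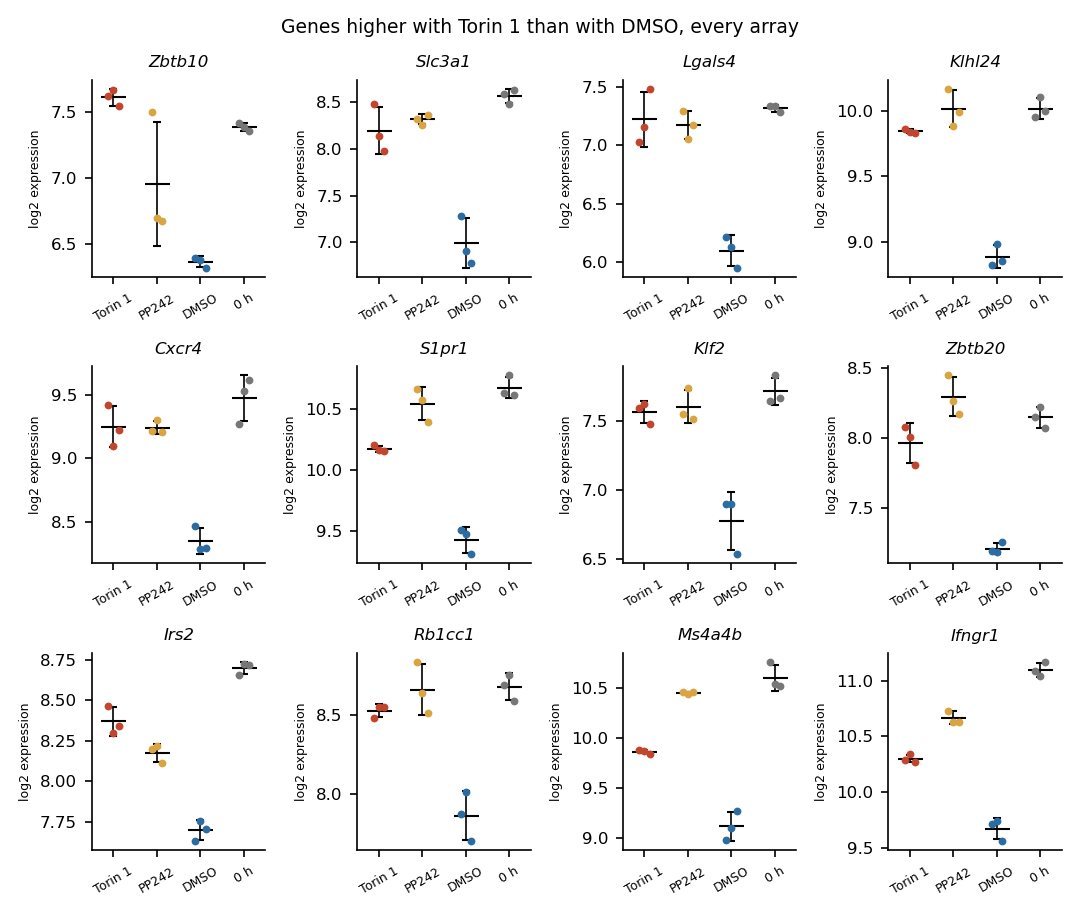
Log2 expression of 12 genes in every array (points), with the mean and SD of each group of 3, in the order Torin 1, PP242, DMSO and unstimulated cells at 0 h. The 12 genes were picked from those called higher without overlap, so by this choice the 3 arrays with Torin 1 lie above the 3 with DMSO.

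Smaller families also held rises. *Ms4a4b*, *Ms4a4c* and *Ms4a6c*, membrane proteins of the MS4A family, held among 5 higher of 20 (25%, against 3.33% of all genes, and 3 without Torin 1 replicate 1). In this family 1 was lower (5%, near the 4.79% of all genes). *Ms4a4b* had log2 levels of 9.88, 9.87 and 9.84 with Torin 1, against 8.98, 9.09 and 9.27 with DMSO (log2 difference 0.75, SE 0.10, adjusted p = 0.000692), and averaged 10.45 with PP242 and 10.60 in unstimulated cells. All 8 GIMAP GTPases, which support survival of resting T cells, had differences above 0, with 4 called higher and a median of 0.38, of which *Gimap6* held at 0.63 (1 was higher without DMSO replicate 3). *Ifngr1*, a chain of the interferon gamma receptor, read 10.29, 10.34 and 10.27 in log2 level with Torin 1, against 9.71, 9.74 and 9.56 with DMSO (log2 difference 0.63, SE 0.09, adjusted p = 0.000998). *Il12rb1*, a chain of the IL-12 receptor, fell by 0.75. Of 39 genes of proximal T cell receptor signalling 5 were higher (12.8%, against 3.33% of all genes, and 2 without DMSO replicate 1). In that list 1 was lower (2.56%, under the 4.79% of all genes). *Cblb*, a ubiquitin ligase, and *Dgka*, a lipid kinase, which both damp receptor signals, rose by 0.56 and 0.44, and the phosphatase *Ptpn6* fell by 0.49. In the BCL2 family both the survival factor *Bcl2* and the death factor *Bcl2l11*, which encodes BIM, rose, by 0.48 and 0.61 in log2 difference, and *Bak1* fell by 0.56. With the median over its rows, *Bcl2* was at 0.36 and not called (adjusted p = 0.0516).

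Of 31 lineage and effector transcription factors 3 were higher (9.68%, against 3.33% of all genes, and 1 without DMSO replicate 1). A fall was called for 1 (3.23%, under the 4.79% of all genes). The single call to hold was the rise of *Satb1*. *Tbx21*, which encodes the type 1 factor T-bet, was called lower at -0.81 and did not hold (adjusted p up to 0.0661 without single arrays). *Irf4*, induced by T cell receptor signals, had log2 levels of 9.95, 9.97 and 9.85 with Torin 1, against 9.83, 9.64 and 9.80 with DMSO, and was not called (log2 difference 0.17, SE 0.12, adjusted p = 0.491). It averaged 9.64 with PP242 and 6.89 in unstimulated cells. *Irf8*, of the same family, went down, with log2 levels of 6.86, 7.43 and 7.30 with Torin 1, against 9.45, 9.38 and 9.52 with DMSO (log2 difference -2.25, SE 0.19, adjusted p = 1.18e-05), and the difference was -1.44 when the median of its rows was taken. It was the single call among 10 interferon regulatory factors. Of 38 genes of the AP-1, NR4A and EGR families and ERK feedback 1 was called, a fall (2.63%, against 4.79% of all genes). It was *Batf*, lower by 0.59, and the call did not hold (adjusted p up to 0.0686 without single arrays). *Nr4a1* and *Egr2*, early markers of receptor signals, differed by -0.13 and 0.36 (adjusted p = 0.572 and 0.134). *Myc* read 10.43, 10.50 and 10.42 in log2 level with Torin 1, against 10.55, 10.52 and 10.55 with DMSO (log2 difference -0.09, SE 0.11, adjusted p = 0.725). *Foxp3* lay higher on each array with Torin 1, at 11.66, 11.67 and 11.58 in log2 level, against 11.43, 11.29 and 11.34 with DMSO, and missed the threshold (log2 difference 0.29, SE 0.09, adjusted p = 0.066). *Gata3* and *Il2ra* differed by -0.05 and -0.01, and *Klrg1* by 0.24, and none was called. *Bcl6*, a repressor of follicular programmes, was called higher at 0.42 (adjusted p = 0.0466) and did not hold (adjusted p up to 0.156 without single arrays).

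Several of the largest rises lay outside the lists above. *Zbtb10*, a zinc finger factor, had log2 levels of 7.63, 7.67 and 7.55 with Torin 1, against 6.40, 6.38 and 6.32 with DMSO (log2 difference 1.25, SE 0.17, adjusted p = 0.000641), and averaged 6.96 with PP242 and 7.39 in unstimulated cells. *Lgals4*, a galectin best known from gut epithelium, read 7.03, 7.16 and 7.48 in log2 level with Torin 1, against 6.22, 6.13 and 5.95 with DMSO (log2 difference 1.12, SE 0.12, adjusted p = 0.000158). *Klhl24*, an adaptor of a cullin ubiquitin ligase, had log2 levels of 9.86, 9.84 and 9.84 with Torin 1, against 8.82, 8.98 and 8.85 with DMSO (log2 difference 0.96, SE 0.10, adjusted p = 0.0001). For these genes the groups were separated by more than the range within either. *Prrt2*, known as a synaptic protein, rose by 1.11. *Cdo1*, cysteine dioxygenase, rose by 1.02, and *Jmy*, an actin nucleator and p53 cofactor, by 0.91. *Neb*, *Pygm* and *Mss51*, known for their roles in muscle, rose by 0.94, 0.90 and 0.94. The long noncoding RNA *Lncpint* rose by 0.95 in log2 difference (SE 0.16, adjusted p = 0.00224).

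The motifs were also counted over all genes with a promoter window. The E2F motif was in 8.45% of 876 genes called lower, 3.41% of 586 called higher and 2.91% of all 16918. The E box was in 14.2% of genes called lower and 11.1% of those called higher, against 8.2% of all, and in 19.7% of 71 ribosome biogenesis genes with a window. CCAAT was in 45.9% of genes called lower, 38.4% of those called higher and 38.4% of all. The CHR was in 16.4%, 11.1% and 15.8% of these groups, and the FOXO motif in 2.28%, 4.61% and 3.06%. For CLEAR the shares were 2.05%, 2.05% and 1.28%, so CLEAR and the E box were above the share of all genes in both directions. Calls were most common among bright genes while the 16918 include dim ones, and the shares were not matched for brightness. A match is a description of the letters in the window and does not show that a factor binds there.

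**Figure D5:**
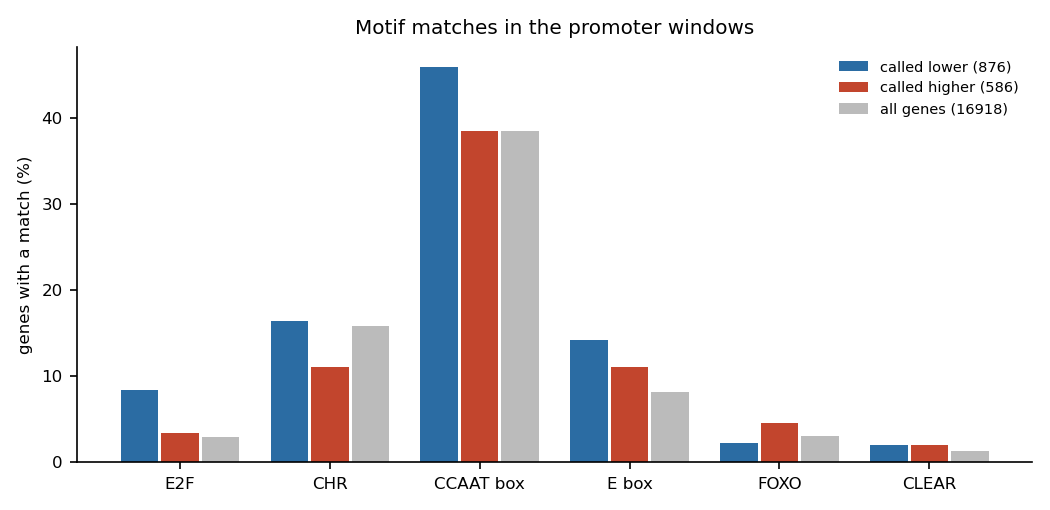
Share of genes (%) whose promoter window holds each motif on either strand, for genes called lower with Torin 1 (876), called higher (586) and all genes with a window (16918). E2F matches were found in 8.45%, 3.41% and 2.91% of these groups.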

How the data were processed

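RNA of 12 samples was hybridised to GeneChip Mouse Gene 2.0 ST arrays after amplification with the WT Pico protocol, which starts from picogram amounts of total RNA. The deposited log2 values were made by the authors with RMA (background correction, quantile normalization and probe summary); the submitters' notes name Partek 6.6, and no genome build for the transcript clusters was given in the sources used here. Among 41345 clusters 23521 carried 1 symbol, 1820 several and 16004 none. For 1082 genes on several clusters the brightest one by mean was taken, giving 22180 genes. The fit used limma 3.58.1 in R 4.3.3 (lmFit and eBayes on 4 group means over all 12 arrays, no replicate block; the methods name an ANOVA), and it was tested on simulated data. Members and gene lists were chosen with earlier results of these data known, so lists are described by counts and medians without a test. The genes open to naming were those the study names for these cells, the 15 largest rises and 15 largest falls that were called, did not overlap and held, up to 6 members of each list on the same terms, and members called against their list's direction; complexes and a few further genes were picked after their values were seen. Alternatives were quantile normalization, median centring, a filter on dim genes (18006 left), the median over a gene's clusters, all clusters in the fit, trend and robust eBayes, no eBayes, array weights, the Torin 1 and DMSO arrays alone, a replicate block, a stricter threshold and leaving out each array. The number of arrays limits the precision.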

Additional observations from a re-analysis of the deposited data

Results flagged for a closer look

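Transcript clusters outside the comparison also carried signal. In a fit over all 41345 clusters, 277 of the 16004 clusters with no gene symbol (1.73%) were called between Torin 1 and DMSO, 188 higher and 89 lower with Torin 1. Of the 1820 clusters with several symbols 66 were called (3.63%), 23 higher and 43 lower. In the same fit 1111 of 23521 clusters with 1 symbol were called (4.72%), 427 higher and 684 lower.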

How the results depend on the processing

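Of the 1800 calls, 750 stood at an adjusted p under 0.01 (264 higher, 486 lower), and 1083 with all clusters in the fit (420 higher, 663 lower). With the Torin 1 and DMSO arrays alone 1245 genes were called, 415 of them higher. Leaving out 1 array gave 988 (without Torin 1 replicate 1) to 1870 calls, 343 to 764 higher and 635 to 1106 lower. The share of calls that were higher was 41% and lay between 32.6% (arrays centred on their median) and 46.1% (no empirical Bayes step). The replicate numbers did not pair the arrays: deviations of arrays with the same number correlated between -0.07 and 0.06, and with a replicate block 1713 genes were called. The log2 difference of *Gata3* changed sign when the median of its clusters was taken (0.0248) and lay between -0.21 and 0.0382 without single arrays. That of *Il2ra* lay between -0.0169 and 0.000717, with 8.33e-05 without Torin 1 replicate 2. Neither gene was called in any setting. Over all alternatives, 5447 values of named genes kept direction and call, 204 lost the call, 19 gained it and 5 changed sign. Dim genes are limited most, since 57 calls had a group under the log2 level 3.69.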

Other observations

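Calls of long noncoding RNAs were mostly rises, though the share called higher was under that of all genes. Of 1926 long noncoding RNAs 45 were called higher with Torin 1 (2.34%, against 3.33% of all genes). Only 9 were called lower (0.467%, against 4.79% of all genes). Of 18964 protein-coding genes 665 were higher (3.51%) and 1043 lower (5.5%). *Tug1*, a nuclear long noncoding RNA, had log2 levels of 10.20, 10.18 and 10.22 with Torin 1, against 9.80, 9.58 and 9.56 with DMSO (log2 difference 0.55, SE 0.11, adjusted p = 0.00684). *Snora73a* and *Snora73b*, related small nucleolar RNAs of early ribosomal RNA processing, went the other way, with *Snora73b* at 7.98, 8.21 and 8.20 in log2 level with Torin 1, against 9.17, 9.23 and 9.04 with DMSO (log2 difference -1.02, SE 0.12, adjusted p = 0.000315). *Mir29a*, the row of a microRNA precursor, showed the largest fitted rise of all called genes, at 4.29, 4.91 and 4.63 in log2 level with Torin 1, against 2.44, 3.48 and 2.87 with DMSO (log2 difference 1.69, SE 0.37, adjusted p = 0.0131), with a DMSO mean under the level of silent genes, and its call did not hold. These RNAs were picked after their values were seen.

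Interferon-stimulated genes held 6 lower and none higher of 47, with a median log2 difference of -0.09 and 3 lower without DMSO replicate 1. *Bst2*, tetherin, had log2 levels of 8.77, 9.12 and 8.81 with Torin 1, against 9.72, 9.78 and 9.55 with DMSO (log2 difference -0.79, SE 0.11, adjusted p = 0.000761). *Oasl2* fell by 0.83, and *Ifitm2*, an interferon-induced membrane protein outside the list, had log2 levels of 5.14, 5.03 and 5.25 with Torin 1, against 7.42, 7.02 and 7.40 with DMSO. None of 8 Schlafen genes was called. *Eea1*, a tether of early endosomes, had log2 levels of 7.66, 7.68 and 7.75 with Torin 1, against 8.21, 8.40 and 8.22 with DMSO (log2 difference -0.58, SE 0.11, adjusted p = 0.00499). Of 68 genes of Rab GTPases and early endosomes 3 were higher (4.41%, near the 3.33% of all genes, and 0 without DMSO replicate 3). In the same list 4 were lower (5.88%, near the 4.79% of all genes, and 2 without DMSO replicate 1). Of 57 spliceosome genes 5 were higher (3 without DMSO replicate 1) and 11 lower (4 without DMSO replicate 2), and the rises that held were the kinases *Clk1* and *Clk4*, which phosphorylate SR proteins, at 0.68 and 0.44, and *Luc7l2* at 0.58, while the core proteins *Snrpd1* and *Snrpa1* fell by 0.95 and 0.86.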
